A study of Homo sapiens with 36 samples.

Results

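BCL2L11 (BIM), a killer member of the BCL2 family, was higher in every knockdown group of 2 human cell lines than in its own controls, whichever of 2 genes was reduced and with whichever of 2 reagents. The 2 EglN2 siRNAs were hardly told apart in any gene, so they may not be separate evidence. After KDM5A shRNA BCL2 and BBC3 moved in opposite directions in the lines, though the rise of BBC3 in 293T was small and close to the threshold. After EglN2 siRNA MCL1 was higher and BAX and PMAIP1 lower in both lines. The family was taken as 10 genes, chosen by symbol, out of 20633 genes listed in 4 deposited tables. All 10 were present in the tables of 293T with EglN2 siRNA, 293T with KDM5A shRNA and MDA-MB-231 with KDM5A shRNA. In MDA-MB-231 with EglN2 siRNA 9 were present, without BIK.

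RNA was sequenced from 36 libraries, 3 in each of 12 groups. The groups were siEglN2-1, siEglN2-2 and siControl, and shKDM5A-1, shKDM5A-2 and shControl, each in 293T and in MDA-MB-231. 293T is an embryonic kidney line and MDA-MB-231 a breast cancer line. EglN2 is a prolyl hydroxylase that uses oxygen and 2-oxoglutarate, and KDM5A removes methyl groups from lysine 4 of histone H3. All groups grew in DMEM with 10% fetal bovine serum and antibiotics. The labels give neither the time after treatment nor the reagents' sequences. They do not tell whether the triplicates were independent cultures, so each p describes variation among these libraries alone, which may be technical.

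The BCL2 family decides whether the outer mitochondrial membrane is opened during apoptosis. BAX and BAK1 are the effectors that form the openings, through which cytochrome c leaves and caspases are switched on. BCL2, BCL2L1 (BCL-xL) and MCL1 are the guardians that hold the effectors and the killers in check. BCL2L11, BBC3 (PUMA), PMAIP1 (NOXA), BID and BIK share only the BH3 segment with the rest and act as killers, either by triggering BAX and BAK1 or by occupying the guardians. Transcription of the killers responds to stress, and BCL2L11 is a textbook FOXO3 target.

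The promoters of BCL2L11, BID and BAX are shown because these genes gave the widest response, the deepest fall and the largest rise that depended on the reagent. Each window runs from 250 bases before to 50 bases after the annotated start (RefSeq, GRCh38.p14), and 8 of 10 members matched a window. Capitals mark 3 sequences on either strand: CCGCCC, reported as bound by the DNA-binding domain of KDM5A and in reverse the core of the GC box of SP1, GTAAACA, a forkhead (FOXO) sequence, and CACGTG, the E-box of MYC.
BCL2L11, chr2:111120664-111120963, plus strand: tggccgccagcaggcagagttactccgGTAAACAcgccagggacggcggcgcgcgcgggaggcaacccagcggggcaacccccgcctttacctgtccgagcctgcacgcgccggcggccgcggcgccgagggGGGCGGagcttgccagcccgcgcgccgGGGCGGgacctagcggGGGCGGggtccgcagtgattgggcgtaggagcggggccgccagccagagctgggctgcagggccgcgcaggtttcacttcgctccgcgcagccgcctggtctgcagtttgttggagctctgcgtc
BID, chr22:17774420-17774719, minus strand: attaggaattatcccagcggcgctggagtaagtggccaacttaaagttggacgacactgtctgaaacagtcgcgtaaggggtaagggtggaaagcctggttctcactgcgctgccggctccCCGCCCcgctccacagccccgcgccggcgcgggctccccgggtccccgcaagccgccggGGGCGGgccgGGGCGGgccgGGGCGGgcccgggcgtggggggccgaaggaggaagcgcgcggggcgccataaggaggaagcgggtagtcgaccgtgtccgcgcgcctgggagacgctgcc
BAX, chr19:48954625-48954924, plus strand: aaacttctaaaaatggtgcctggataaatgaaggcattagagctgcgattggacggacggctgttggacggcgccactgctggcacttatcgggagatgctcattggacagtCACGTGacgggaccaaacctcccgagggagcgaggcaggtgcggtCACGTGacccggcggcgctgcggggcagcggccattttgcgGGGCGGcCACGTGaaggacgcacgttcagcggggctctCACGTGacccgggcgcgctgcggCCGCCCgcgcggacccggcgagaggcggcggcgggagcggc
The BCL2L11 window held 3 copies of CCGCCC and 1 GTAAACA, the BID window 4 copies of CCGCCC, and the BAX window 2 copies of CCGCCC and 4 of CACGTG. Over all 35116 windows, at least 1 CCGCCC was in 44.954%, GTAAACA in 3.423% and CACGTG in 7.256%, and copies per window were not compared. The BCL2L11, BID and BAX windows shown were 74.67%, 71.67% and 67.33% G and C, against a median of 58.67% over all windows, and CCGCCC holds only these letters. The CCGCCC counts are thus no sign of enrichment, and enrichment of GTAAACA or CACGTG was not tested. BID has 5 annotated windows, of which the one shown is the first, and the others held 0 to 4 copies of CCGCCC. PMAIP1 had 4 copies of CCGCCC and BAK1 had 2, while the window of BCL2 held none of the 3 sequences and that of BBC3 only 1 CACGTG. BCL2L1 has 2 annotated windows, with 0 and 1 copies of CCGCCC. These are matches of letters, and no binding was measured.

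In GRCh38 (GENCODE 29) BCL2L11 spans bases 111119378 to 111168447 of chromosome 2 and BID bases 17734138 to 17774770 of chromosome 22. BCL2 spans 63123346 to 63320128 and PMAIP1 59899948 to 59904306 of chromosome 18. BAX spans 48954815 to 48961798 and BBC3 47220822 to 47232766 of chromosome 19. MCL1 spans 150574551 to 150579738 of chromosome 1, BAK1 33572547 to 33580293 of chromosome 6, BCL2L1 31664452 to 31723989 of chromosome 20 and BIK 43110748 to 43129712 of chromosome 22. Values of BAK1 and BCL2L1, levels and ranks included, are uncertain, since 0 of 9 were whole numbers before rounding in each of the 4 tables. For BAK1 the annotation holds the copies BAK1P1 and BAK1P2, which may share its reads. BCL2L1 overlaps the antisense gene ABALON and BCL2L11 the antisense gene MIR4435-2HG, and use of strand in the counting is not stated, so reads of such pairs cannot be told apart.

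Libraries held 20535534 to 27592156 counts in 293T EglN2 and 17176797 to 23417925 in 293T KDM5A. They held 14361216 to 18011743 in MDA-MB-231 EglN2 and 14850585 to 19661503 in MDA-MB-231 KDM5A. Values are CPM, each gene's counts scaled to the TMM-adjusted library total. EGLN2 stood at 22.0 ± 0.0960 and 22.4 ± 0.269 CPM with siEglN2-1 and siEglN2-2, against 65.2 ± 7.38 in siControl of 293T, and at 22.5 ± 2.22 and 21.7 ± 0.767 against 106 ± 0.787 in MDA-MB-231 (SD, n = 3). KDM5A stood at 27.2 ± 0.796 and 31.6 ± 0.961 CPM with shKDM5A-1 and shKDM5A-2, against 66.8 ± 0.711 in shControl of 293T, and at 16.8 ± 0.659 and 18.8 ± 0.555 against 50.2 ± 4.13 in MDA-MB-231. Of the 7 MDA-MB-231 markers, all 7 were present in that line, summing to 2481 to 2879 CPM, and 5 were listed in 293T, summing to 12.7 to 32.6 CPM. All 6 markers of 293T were present in 293T, summing to 594 to 755 CPM, and 0 of 6 were listed in MDA-MB-231. The 293T siControl library without a replicate number stood apart from the other siControl libraries, with a chi-square per degree of freedom of 17.9 and 21.3 against 1.36 to 7.27 in the other 34 pairs of libraries of 1 group. In MDA-MB-231 siControl replicate 1 also stood apart, at 6.41 and 7.27, where every remaining pair was at 3.04 or less. No member lost or gained a call, as defined with the comparisons, when either library was left out. Without replicate 1 the BCL2L11 log2 fold changes in MDA-MB-231 EglN2 were 0.34 and 0.40 in place of 0.27 and 0.33. Without the unnumbered control those in 293T EglN2 shrank to 0.198 and 0.221 from 0.255 and 0.278. There MCL1 shrank to 0.263 and 0.247 from 0.319 and 0.303, and BAX to -0.267 and -0.21 from -0.352 and -0.297. BCL2 moved further from 0, to -0.481 and -0.364 from -0.454 and -0.334.

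Control cells of the lines had different leading members. Per kilobase of exon, BCL2L1 was the most abundant member in MDA-MB-231, at 123 ± 1.43 CPM per kilobase in siControl and 111 ± 1.99 in shControl (SD, n = 3), and one of the less abundant in 293T, at 5.57 ± 0.0789 and 6.82 ± 0.132. MCL1 stood second in MDA-MB-231, at 104 ± 2.33 and 98.7 ± 1.29 CPM per kilobase. PMAIP1 led in 293T, at 54.8 ± 1.01 CPM per kilobase in siControl and 75.8 ± 2.32 in shControl, followed by BAX and MCL1, whose libraries overlapped in both control groups, and then BAK1. In MDA-MB-231 the order after MCL1 was PMAIP1, BAX, BAK1, BID, BBC3, BCL2L11 and BCL2, with no overlap between neighbours in either control group. In siControl of 293T the libraries of BBC3 and BID overlapped, as did those of BCL2L11 and BCL2L1 and those of BIK and BCL2. BCL2 was at 0.706 to 1.23 CPM per kilobase over the 4 control groups, and BIK at 0.397 to 0.723 over the 3 in which it was listed. The levels of the lines come from separate tables and were set side by side without a test.

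Each knockdown group was compared with the controls of its own table, and a gene was called at an adjusted p under 0.05 (edgeR quasi-likelihood F-test, Benjamini-Hochberg over all genes tested). Both reagents share the same 3 controls, so their results are not independent of each other. With siEglN2-1 and siEglN2-2 in 293T, 6 and 6 of 10 members were called, where 35.1% and 34.2% of all genes were. In MDA-MB-231 it was 7 and 6 of 9, against 44.5% and 45.4% of all genes. With shKDM5A-1 and shKDM5A-2, 6 and 7 of 10 members were called in 293T, against 42.2% and 39.0%, and 7 and 8 of 9 in MDA-MB-231, against 55.3% and 59.0%. Calls in the same direction with both reagents were 6 of 10 in 293T EglN2 (30.1% of all genes), 6 of 9 in MDA-MB-231 EglN2 (38.7%), 3 of 10 in 293T KDM5A (13.4%) and 6 of 9 in MDA-MB-231 KDM5A (32.3%). In bulk RNA, fewer cells expressing a gene and less RNA per cell cannot be told apart. Over these 8 comparisons there were 76 tests of members, of which 31 were called higher and 22 lower. Of all genes, 2981 and 2968 were called higher and 3209 and 3052 lower with siEglN2-1 and siEglN2-2 in 293T. In MDA-MB-231 it was 3249 and 3295 higher and 3476 and 3564 lower. With shKDM5A-1 and shKDM5A-2 it was 3754 and 3396 higher and 3587 and 3381 lower in 293T. In MDA-MB-231 these shRNAs gave 4349 and 4540 higher and 4200 and 4580 lower. The 76 tests reuse the same genes and controls, so the split is not read as a result about the family. The median log2 fold change of the members was -0.15 and -0.17 in 293T EglN2, 0.072 and 0.032 in MDA-MB-231 EglN2, 0.11 and 0.14 in 293T KDM5A and 0.15 and 0.091 in MDA-MB-231 KDM5A, while that of all genes lay between -0.005 and 0.011. Folds were small: the widest called change of a member was -0.84 on the log2 scale (BID, shKDM5A-2 in MDA-MB-231).

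**Figure D1:**
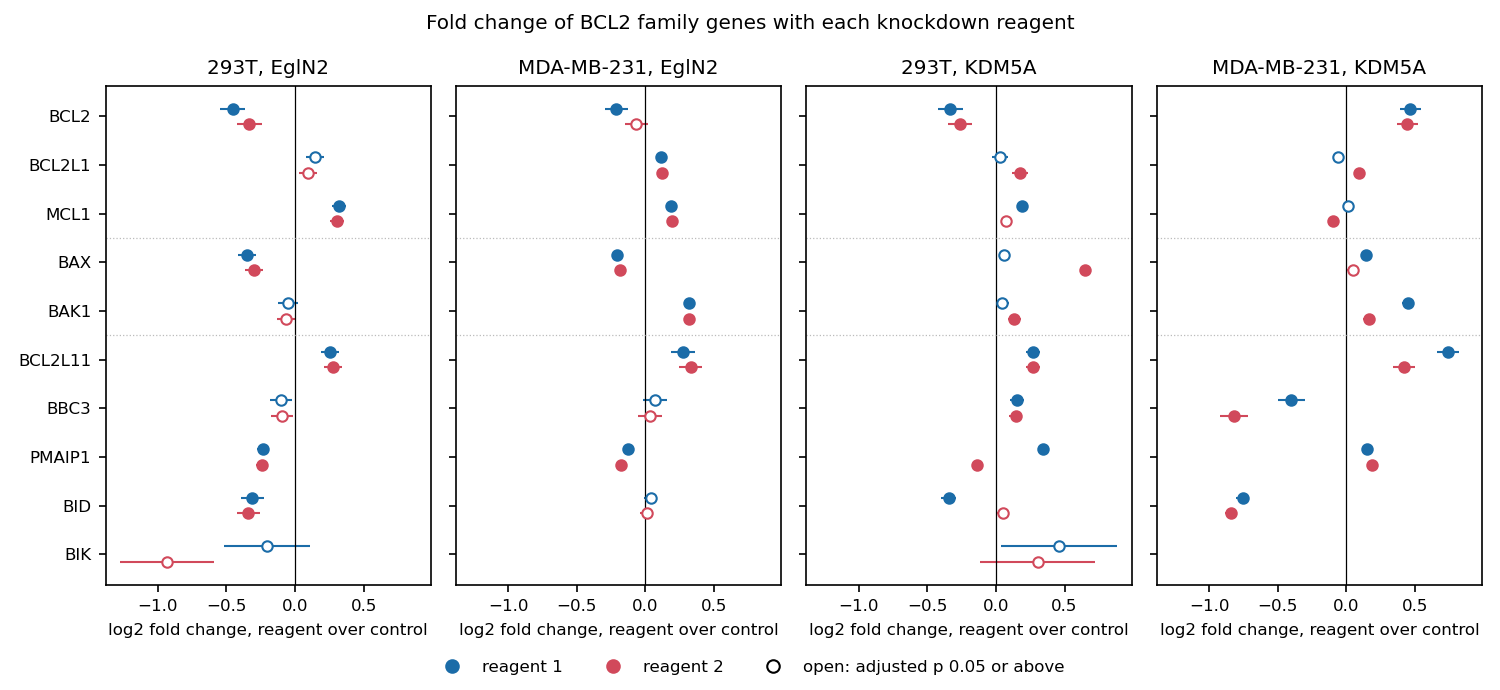
Log2 fold change (horizontal axis) of each member with reagent 1 (blue) and reagent 2 (red) over its own controls in each of the 4 experiments; bars are the standard error, filled points passed an adjusted p under 0.05, and dotted lines divide guardians, effectors and killers. BCL2L11 lies to the right of 0 with filled points in all 4 panels, at 0.26 to 0.74, while BCL2 lies to the left in 3 panels and at 0.47 and 0.45 with the KDM5A shRNAs of MDA-MB-231.

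Among the killers, BCL2L11 rose in all 8 comparisons. It was the only member of 44 genes, 0.321% of the 13702 tested in all 4 tables, that were called higher in all 8. In 293T it had 43.2, 44.8 and 45.7 CPM with siEglN2-1, 43.1, 44.7 and 48.0 with siEglN2-2 and 39.4, 38.3 and 34.3 in siControl. In 293T after KDM5A shRNA it had 34.9, 33.8 and 36.9 CPM with shKDM5A-1, 35.3, 36.1 and 34.2 with shKDM5A-2 and 30.6, 28.1 and 28.9 in shControl. Every knockdown library of 293T was above every control of its table. Fold changes on the log2 scale in 293T were 0.26 ± 0.064 and 0.28 ± 0.064 after EglN2 siRNA (SE; adjusted p from edgeR = 0.0104 and 0.00688) and 0.27 ± 0.052 and 0.27 ± 0.051 after KDM5A shRNA (edgeR adjusted p = 5.00e-05 and 3.91e-05).

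The same gene in MDA-MB-231 had 14.6, 14.9 and 18.3 CPM with siEglN2-1, 16.5, 16.96 and 16.3 with siEglN2-2 and 14.4, 12.4 and 12.7 in siControl. After KDM5A shRNA it had 23.3, 20.0 and 19.8 CPM with shKDM5A-1, 15.9, 17.1 and 17.4 with shKDM5A-2 and 11.9, 13.4 and 12.4 in shControl. The groups did not overlap in either experiment, and the shKDM5A-1 libraries were also above all shKDM5A-2 libraries. Fold changes on the log2 scale were 0.27 ± 0.087 and 0.33 ± 0.086 after EglN2 siRNA (SE; adjusted p from edgeR = 0.00854 and 0.00142) and 0.74 ± 0.078 and 0.42 ± 0.081 after KDM5A shRNA (edgeR adjusted p = 9.88e-10 and 4.30e-05). With siEglN2-1 in MDA-MB-231, 1 library decided the call: without replicate 3, at 18.3 CPM, the log2 fold change was 0.16 and the edgeR adjusted p 0.162.

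BID, which is cut by caspase-8 to link death receptors to mitochondria, fell wherever it was called, in 5 of 8 comparisons. In MDA-MB-231 it had 43.4, 40.7 and 43.0 CPM with shKDM5A-1, 37.7, 41.9 and 40.0 with shKDM5A-2 and 69.1, 71.0 and 73.8 in shControl. All 6 shRNA libraries lay far below all 3 controls, and fold changes on the log2 scale were -0.76 ± 0.045 and -0.84 ± 0.046 (SE; adjusted p from edgeR = 1.60e-15 and 9.31e-17). In MDA-MB-231 after EglN2 siRNA the groups overlapped, at 43.6 ± 3.07 and 42.8 ± 1.37 CPM against 42.6 ± 1.505 in siControl (SD, n = 3). In 293T it had 27.9, 27.9 and 27.4 CPM with siEglN2-1, 27.7, 26.7 and 27.3 with siEglN2-2 and 31.2, 32.3 and 39.9 in siControl. The highest of these controls was the library without a number: without it the log2 fold changes of -0.31 and -0.34 became -0.20 and -0.23 and both stayed called, while without siEglN2-1 replicate 3 the call of that siRNA was lost (edgeR adjusted p = 0.0503). In 293T after KDM5A shRNA it had 22.4, 21.8 and 22.9 CPM with shKDM5A-1, 29.1, 29.3 and 29.8 with shKDM5A-2 and 28.3, 28.5 and 28.4 in shControl. Only the shKDM5A-1 libraries lay below the controls, with -0.34 ± 0.054 (SE; adjusted p from edgeR = 2.10e-06), and shKDM5A-2 had 0.049 (edgeR adjusted p = 0.474).

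BBC3, the killer PUMA, was called after KDM5A shRNA, in opposite directions in the 2 lines, and not after EglN2 siRNA. In MDA-MB-231 it had 8.22, 8.35 and 8.64 CPM with shKDM5A-1, 5.76, 7.31 and 5.77 with shKDM5A-2 and 11.2, 11.7 and 10.5 in shControl. Every shRNA library was below every control, and fold changes on the log2 scale were -0.40 ± 0.099 and -0.82 ± 0.10 (SE; adjusted p from edgeR = 8.22e-04 and 4.05e-08). In 293T it had 38.3, 38.9 and 35.4 CPM with shKDM5A-1, 37.2, 38.9 and 35.8 with shKDM5A-2 and 33.2, 33.5 and 34.7 in shControl. Every shRNA library there was above every control, with log2 fold changes of 0.15 ± 0.050 and 0.14 ± 0.049 (SE; adjusted p from edgeR = 0.0136 and 0.0184). This rise was close to the threshold: DESeq2 gave adjusted p of 0.0727 and 0.0903, and the call was lost without shKDM5A-1 replicate 1 or 2 (0.0576 and 0.0838) for shKDM5A-1, and without shKDM5A-2 replicate 2 (0.107) or shControl replicate 1 or 2 (0.0600 and 0.0620) for shKDM5A-2. After EglN2 siRNA BBC3 had log2 fold changes of -0.10 and -0.095 in 293T and 0.072 and 0.032 in MDA-MB-231.

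PMAIP1, the killer NOXA that occupies MCL1, was called in all 8 comparisons, lower in 5 and higher in 3. It fell after EglN2 siRNA in both lines. It had 104, 103 and 105 CPM with siEglN2-1, 106, 107 and 98.1 with siEglN2-2 and 119.9, 124 and 124 in siControl of 293T. In MDA-MB-231 it had 115, 115 and 114 CPM with siEglN2-1, 112, 113 and 106 with siEglN2-2 and 125, 125 and 125 in siControl. No siRNA library reached the level of a control, and fold changes on the log2 scale were -0.23 ± 0.043 and -0.24 ± 0.043 in 293T and -0.12 ± 0.029 and -0.18 ± 0.029 in MDA-MB-231 (SE; adjusted p from edgeR = 0.00206, 0.00165, 3.41e-04 and 9.06e-07). After KDM5A shRNA in 293T it had 215, 215 and 216 CPM with shKDM5A-1, 147, 156 and 159 with shKDM5A-2 and 175, 169 and 164 in shControl. The shRNAs gave opposite calls, 0.35 ± 0.028 with shKDM5A-1 and -0.14 ± 0.029 with shKDM5A-2 (SE; adjusted p from edgeR = 1.71e-12 and 1.54e-04). In MDA-MB-231 both shRNAs gave a rise, of 0.15 ± 0.036 and 0.18 ± 0.036, with 127, 134 and 136 and 134, 132 and 142 CPM against 117, 116 and 125 in shControl and no overlap.

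BIK, a killer of the endoplasmic reticulum, was under 1 CPM in every library that listed it. Its libraries ran from 0.287 to 0.714 CPM with the EglN2 siRNAs and from 0.464 to 0.898 in siControl of 293T. They ran from 0.347 to 0.622 CPM with the KDM5A shRNAs and from 0.294 to 0.460 in shControl of 293T, and from 0.108 to 0.612 against 0.374 to 0.539 in MDA-MB-231, where it did not pass the filter on low counts. It was called in 0 of the 4 comparisons in which edgeR tested it, and in 0 of the 2 to which DESeq2 gave an adjusted p, while 1 of the 4, siEglN2-2 in 293T, had an unadjusted p under 0.05 (log2 fold change -0.93, adjusted p = 0.0550). Leaving out siControl replicate 1 made that value -1.15 with an edgeR adjusted p of 0.0300.

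**Figure D2:**
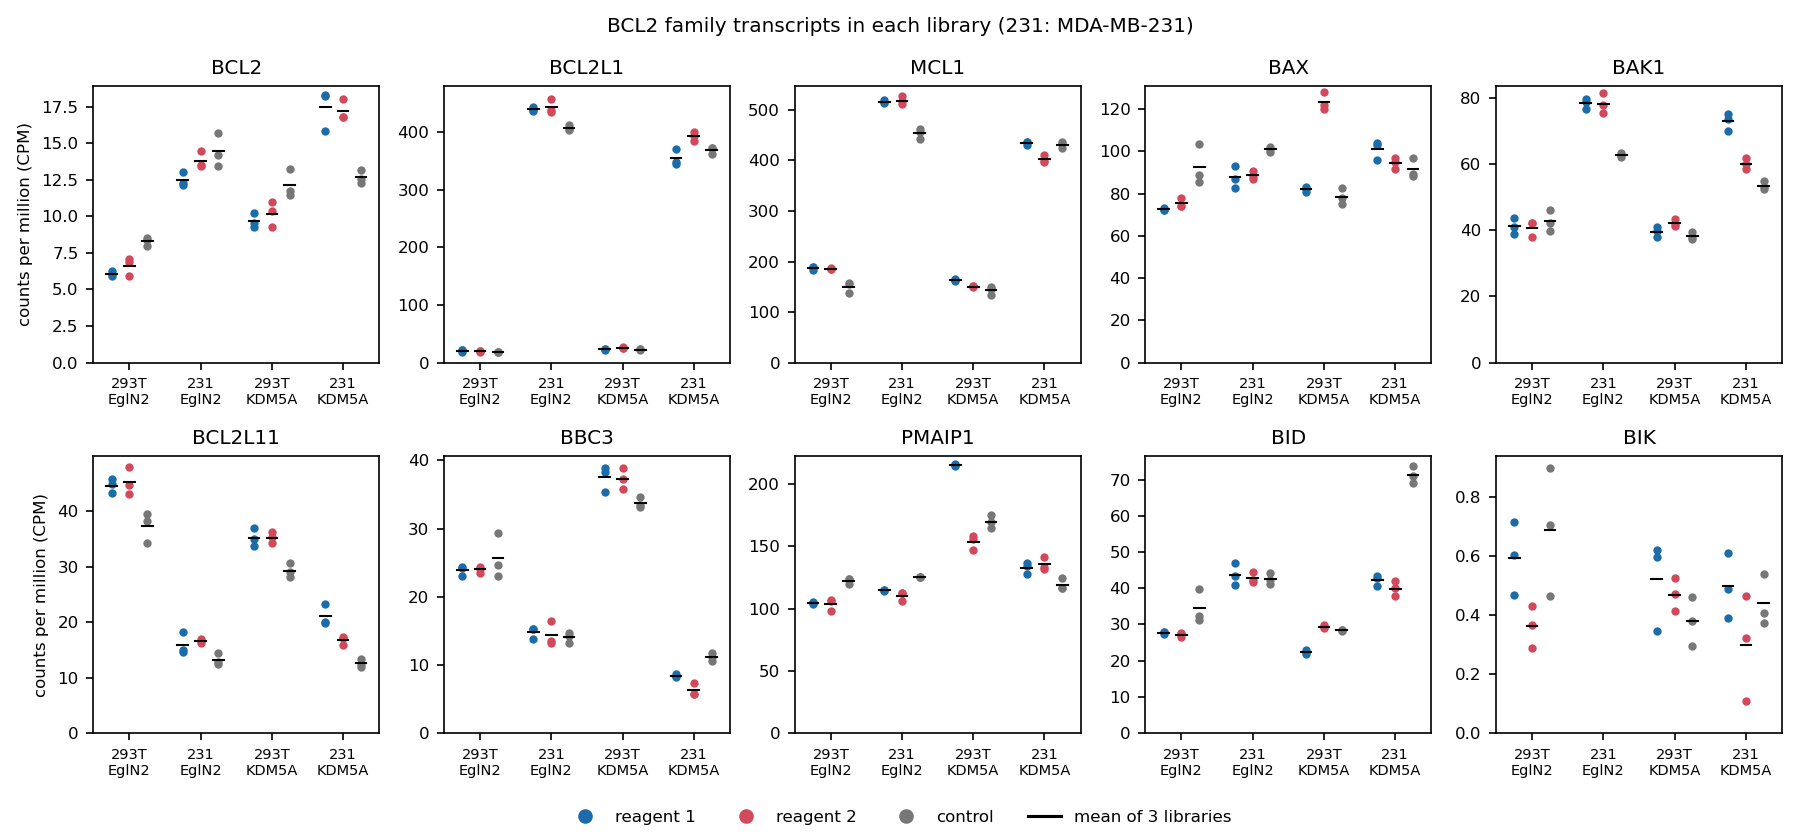
CPM (vertical axis, from 0) of each member in every library, with reagent 1 (blue), reagent 2 (red) and control (grey) in each experiment and a bar at the mean of 3 libraries. BID in MDA-MB-231 stands at 37.7 to 43.4 CPM with the KDM5A shRNAs and at 69.1 to 73.8 in shControl, and BCL2L1 separates the lines more than it does any knockdown.

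Among the guardians, BCL2 itself, which was named for its translocation in follicular lymphoma, fell in 293T with all 4 reagents and rose in MDA-MB-231 after KDM5A shRNA. In 293T it had 5.90, 6.07 and 6.25 CPM with siEglN2-1, 6.86, 5.89 and 7.12 with siEglN2-2 and 8.53, 8.42 and 7.99 in siControl. After KDM5A shRNA in 293T it had 9.53, 9.27 and 10.2 CPM with shKDM5A-1, 10.97, 10.3 and 9.25 with shKDM5A-2 and 11.8, 13.2 and 11.5 in shControl. The knockdown libraries were below all controls in both tables. Fold changes on the log2 scale were -0.45 ± 0.092, -0.33 ± 0.091, -0.33 ± 0.091 and -0.26 ± 0.088 with siEglN2-1, siEglN2-2, shKDM5A-1 and shKDM5A-2 (SE; adjusted p from edgeR = 0.00344, 0.0169, 0.00297 and 0.0163). For the second reagent of each target 1 library decided the call: it was lost without siControl replicate 1 (0.0506) or siEglN2-2 replicate 2 (0.0724), and without shControl replicate 2 (0.138) or shKDM5A-2 replicate 3 (0.119), and DESeq2 gave 0.101 for shKDM5A-2.

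In MDA-MB-231 after KDM5A shRNA BCL2 had 18.3, 18.3 and 15.9 CPM with shKDM5A-1, 16.8, 18.01 and 16.8 with shKDM5A-2 and 12.5, 13.2 and 12.3 in shControl. All 6 shRNA libraries were above all controls, with log2 fold changes of 0.47 ± 0.078 and 0.45 ± 0.078 (SE; adjusted p from edgeR = 5.50e-06 and 1.10e-05). After EglN2 siRNA it had 13.01, 12.3 and 12.1 CPM with siEglN2-1, 14.5, 13.5 and 13.4 with siEglN2-2 and 13.5, 15.7 and 14.2 in siControl. The siEglN2-2 libraries overlapped the controls, and only siEglN2-1 was called (-0.21 ± 0.085, SE; adjusted p from edgeR = 0.0373). That call was lost with DESeq2 (0.111) and without siControl replicate 2 or 3 (0.218 and 0.0610) or siEglN2-1 replicate 2 or 3 (0.0901 and 0.110).

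MCL1, a short-lived guardian that the proteasome clears, rose after EglN2 siRNA in both lines. It had 189.5, 183 and 190.1 CPM with siEglN2-1, 184, 186 and 186 with siEglN2-2 and 155, 158 and 138 in siControl of 293T. In MDA-MB-231 it had 514, 519.5 and 516 CPM with siEglN2-1, 511, 528 and 517 with siEglN2-2 and 457, 442 and 462 in siControl. No siRNA library overlapped the controls, and fold changes on the log2 scale were 0.32 ± 0.050 and 0.30 ± 0.050 in 293T and 0.19 ± 0.021 and 0.19 ± 0.021 in MDA-MB-231 (SE; adjusted p from edgeR = 7.20e-04, 9.90e-04, 2.38e-10 and 1.06e-10). After KDM5A shRNA the calls were mixed: a rise with shKDM5A-1 in 293T (0.19, edgeR adjusted p = 4.46e-06) and a fall with shKDM5A-2 in MDA-MB-231 (-0.099, 5.26e-04). With shKDM5A-2 in 293T it had 0.074 (0.0532), which was called without shControl replicate 1 (0.11, 0.00745), and shKDM5A-1 in MDA-MB-231 had 0.010. The gene overlaps ADAMTSL4-AS1.

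BCL2L1, the guardian that MDA-MB-231 expresses at the highest level per kilobase, moved by little. In that line it had 444, 436 and 439 CPM with siEglN2-1, 438, 435 and 458 with siEglN2-2 and 413, 406 and 404 in siControl. The groups did not overlap and fold changes on the log2 scale were 0.11 ± 0.022 and 0.12 ± 0.022 (SE; adjusted p from edgeR = 5.13e-05 and 8.35e-06). Of the KDM5A shRNAs in that line only shKDM5A-2 was called, at 0.091 (edgeR adjusted p = 0.00467), while shKDM5A-1 had -0.058 (0.0714), a value called as a fall without shKDM5A-1 replicate 3 (0.00111) or shControl replicate 2 (0.0427). In 293T it stayed between 18.2 and 26.8 CPM, and shKDM5A-2 alone was called (0.17, 0.0110), a call lost with DESeq2 (0.0841) and without shKDM5A-2 replicate 3 (0.0883) or shControl replicate 2 (0.0535). After EglN2 siRNA it had 0.14 and 0.095 in 293T, and the first of these was called without siEglN2-1 replicate 2 (0.0462). The antisense ABALON held 10.7 to 19.3 CPM in MDA-MB-231 and 0.591 to 2.03 in 293T, and its part in the BCL2L1 values was not tested.

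Of the effectors, BAX fell after EglN2 siRNA in both lines and rose strongly with 1 KDM5A shRNA. It had 72.1, 72.2 and 73.3 CPM with siEglN2-1, 74.3, 77.7 and 74.1 with siEglN2-2 and 88.8, 85.6 and 104 in siControl of 293T. In MDA-MB-231 it had 93.3, 86.9 and 82.8 CPM with siEglN2-1, 88.4, 86.8 and 90.8 with siEglN2-2 and 102, 101 and 99.8 in siControl. All siRNA libraries were below all controls, with log2 fold changes of -0.35 ± 0.065 and -0.30 ± 0.065 in 293T and -0.21 ± 0.036 and -0.19 ± 0.036 in MDA-MB-231 (SE; adjusted p from edgeR = 0.00200, 0.00548, 6.70e-06 and 2.60e-05). After KDM5A shRNA in 293T it had 82.4, 83.3 and 80.6 CPM with shKDM5A-1, 128, 120.3 and 122 with shKDM5A-2 and 75.2, 82.7 and 77.8 in shControl. Only shKDM5A-2 stood apart, with 0.65 ± 0.034 (SE; adjusted p from edgeR = 9.36e-18), and shKDM5A-1 had 0.061 (0.185), which was called without shControl replicate 2 (0.0420). In MDA-MB-231 shKDM5A-1 was called, at 0.14 (0.00228), and shKDM5A-2 had 0.048.

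BAK1, the other effector, rose in MDA-MB-231 with all 4 reagents. It had 78.6, 76.6 and 79.6 CPM with siEglN2-1, 77.7, 75.3 and 81.3 with siEglN2-2 and 63.3, 62.0 and 62.7 in siControl. After KDM5A shRNA it had 69.8, 73.5 and 75.0 CPM with shKDM5A-1, 61.6, 59.8 and 58.5 with shKDM5A-2 and 54.9, 52.4 and 52.9 in shControl. No knockdown library overlapped its controls, and fold changes on the log2 scale were 0.32 ± 0.038, 0.32 ± 0.038, 0.45 ± 0.041 and 0.17 ± 0.043 (SE; adjusted p from edgeR = 1.76e-09, 1.89e-09, 5.55e-11 and 0.00103). In 293T it stayed between 37.4 and 46.2 CPM, with -0.050 and -0.064 after EglN2 siRNA and 0.047 with shKDM5A-1, none of them called. The rise of 0.14 with shKDM5A-2 in 293T was lost with DESeq2 (0.0847) and without shKDM5A-2 replicate 2 (0.0771) or shControl replicate 1 or 2 (0.0607 and 0.0537). The copy BAK1P1 was listed only in the 293T tables, at 0.0847 to 0.644 CPM.

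Ratios of 2 transcripts within a library do not depend on its total. They are made of the values of single genes given above and are no separate evidence. After EglN2 siRNA the log2 ratio of PMAIP1 over MCL1, a killer over the guardian it occupies, was -0.85 ± 0.021 and -0.84 ± 0.067 with siEglN2-1 and siEglN2-2 and -0.29 ± 0.12 in siControl of 293T. In MDA-MB-231 it was -2.17 ± 0.0080 and -2.23 ± 0.050 with the siRNAs and -1.86 ± 0.034 in siControl (SD, n = 3). The groups did not overlap in either line (exact two-sided permutation p = 0.1 for each siRNA, the smallest that 3 libraries against 3 allow, so no ratio could pass a threshold of 0.05). That outcome was set by the values above, since all siRNA libraries were below all controls in PMAIP1 and above all controls in MCL1. After KDM5A shRNA the difference of this ratio from shControl was 0.15 and -0.22 with shKDM5A-1 and shKDM5A-2 in 293T and 0.14 and 0.29 in MDA-MB-231 (exact permutation p = 0.1 each). The log2 ratio of BAX over BCL2, an effector over a guardian, was 3.09 ± 0.097 and 3.60 ± 0.10 with shKDM5A-1 and shKDM5A-2 and 2.69 ± 0.063 in shControl of 293T. In MDA-MB-231 it was 2.53 ± 0.16 and 2.46 ± 0.037 with the shRNAs and 2.85 ± 0.11 in shControl. It was thus higher after KDM5A shRNA in one line and lower in the other, without overlap (exact permutation p = 0.1 each). After EglN2 siRNA the BAX over BCL2 ratio differed from siControl by 0.10 and 0.038 in 293T and by 0.004 and -0.12 in MDA-MB-231 (exact permutation p = 0.4, 0.6, 0.9 and 0.2). The log2 ratio of BCL2L11 over BCL2L1 was -4.08 ± 0.17 and -4.55 ± 0.042 with shKDM5A-1 and shKDM5A-2 and -4.88 ± 0.11 in shControl of MDA-MB-231 (exact permutation p = 0.1 each), and in the other 3 experiments it differed from the controls by 0.12 and 0.19 (293T EglN2), 0.16 and 0.21 (MDA-MB-231 EglN2) and 0.24 and 0.099 (293T KDM5A). Over the 24 differences of 3 ratios, exact p ran from 0.1 to 0.9.

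**Figure D3:**
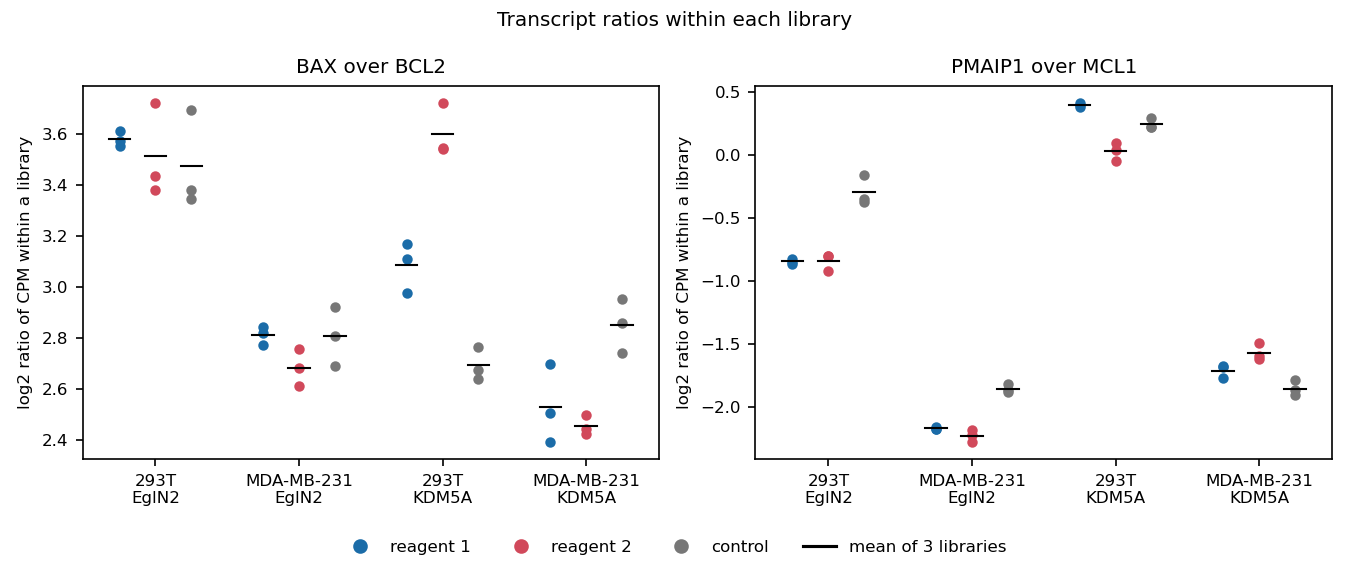
Log2 ratio of CPM within each library (vertical axis) for BAX over BCL2 and PMAIP1 over MCL1, with reagent 1 (blue), reagent 2 (red) and control (grey) per experiment and a bar at the mean of 3 libraries. After EglN2 siRNA the PMAIP1 over MCL1 ratios lie below the controls in both lines, at means of -0.85 and -0.84 in 293T and -2.17 and -2.23 in MDA-MB-231.

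The difference between the lines was tested as an interaction over 18 libraries per target, MDA-MB-231 minus 293T, on the mean log2 fold change of both reagents. For EglN2 siRNA 2 of 9 members were called, against 31.2% of all genes, and for KDM5A shRNA 7 of 10, against 44.7%. BAK1 and BID were the 2 after EglN2 siRNA. BAK1 had a mean effect of 0.32 in MDA-MB-231 and -0.057 in 293T (difference 0.38 ± 0.071, SE; adjusted p from edgeR = 4.98e-04). BID had 0.023 in MDA-MB-231 and -0.33 in 293T (difference 0.35 ± 0.090, 0.00575), which became 0.23 without the unnumbered control and stayed called. For BCL2L11 the difference after EglN2 siRNA was 0.041, with a 95% interval of -0.15 to 0.23. BCL2, at 0.26 (0.0517), was called without 293T siEglN2-2 replicate 3 (0.0358) or MDA-MB-231 siControl replicate 2 (0.0273). MCL1, at -0.12 (0.0654), was called with DESeq2 (-0.11, 0.0461), with a filter on average log2 CPM (-0.12, 0.0429) and without 293T siControl replicate 1 or 2 (0.0433 and 0.0165), as was BAX, at 0.13 (0.159), without 293T siControl replicate 2 (0.0364).

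After KDM5A shRNA the lines differed most in BBC3, BCL2 and BID. BBC3 had a mean effect of -0.61 in MDA-MB-231 and 0.15 in 293T (difference -0.76 ± 0.092, SE; adjusted p from edgeR = 9.36e-09). BCL2 had 0.46 in MDA-MB-231 and -0.30 in 293T (difference 0.75 ± 0.10, 9.35e-08). BID fell further in MDA-MB-231, at -0.80 against -0.15 in 293T (difference -0.65 ± 0.057, 3.61e-12). BCL2L11 rose more in MDA-MB-231, at 0.58 against 0.27 (difference 0.31 ± 0.083, 0.00228), and BAK1 likewise, at 0.31 against 0.091 (0.21 ± 0.052, 7.93e-04). BAX and MCL1 were lower in MDA-MB-231 relative to 293T, with differences of -0.26 ± 0.048 and -0.18 ± 0.033. KDM5A itself fell further in MDA-MB-231 (difference -0.31, 8.41e-05), and EGLN2 likewise after its siRNAs (difference -0.70, 5.86e-06); the part of this in the members' differences was not tested.

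**Figure D4:**
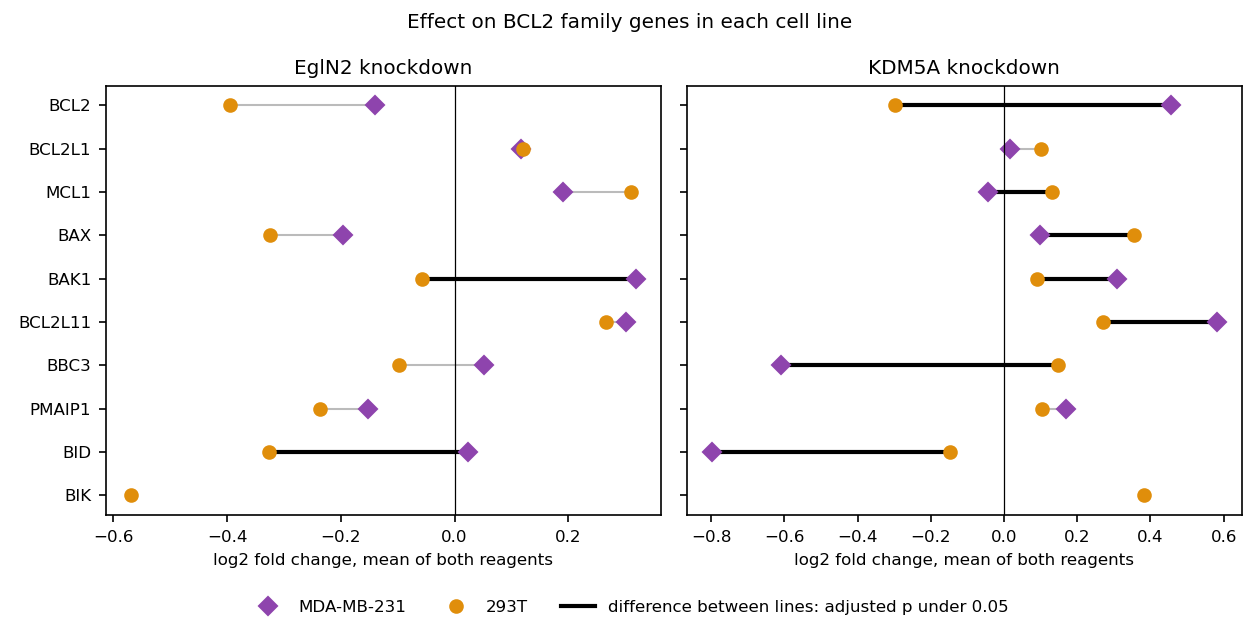
Mean log2 fold change of both reagents (horizontal axis) for each member in MDA-MB-231 (diamonds) and 293T (circles), with a thick line where the difference passed an adjusted p under 0.05. After KDM5A shRNA BCL2 lies at 0.46 in MDA-MB-231 and -0.30 in 293T, and BBC3 at -0.61 in MDA-MB-231 and 0.15 in 293T.

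The reagents of a target were also compared with each other, and here the members followed all genes. For siEglN2-2 against siEglN2-1, edgeR called 0 of 10 members in 293T, where 0.0% of all genes were called, and 0 of 9 in MDA-MB-231, where 0.00662% were, which is 1 gene. DESeq2 called 0 members in each line as well, and 0 members had an unadjusted p under 0.05. Of all genes, 276 of 17622 in 293T and 940 of 15109 in MDA-MB-231 had an unadjusted edgeR p under 0.05. The number in 293T is below what a threshold of 0.05 passes between groups that do not differ. The test there was thus conservative and may have missed differences. Its estimate of the spread includes the unnumbered control that stood apart, and the part of that library was not tested. The 2 siRNAs were thus hardly told apart, and calls with both of them may not be separate evidence. For BCL2L11 the 95% interval of the difference between the siRNAs was -0.10 to 0.15 in 293T and -0.10 to 0.21 in MDA-MB-231. For shKDM5A-2 against shKDM5A-1, 5 of 10 members were called in 293T and 6 of 9 in MDA-MB-231, against 49.3% and 56.6% of all genes, so the share of members was near that of all genes. In 293T BAX, BID and BCL2L1 were higher with shKDM5A-2 than with shKDM5A-1, with log2 differences of 0.59, 0.39 and 0.15, and PMAIP1 and MCL1 lower, with -0.48 and -0.12. In MDA-MB-231 BBC3, BCL2L11, BAK1, MCL1 and BAX were lower with shKDM5A-2, with log2 differences of -0.42, -0.32, -0.28, -0.11 and -0.097, and BCL2L1 was higher, with 0.15. For BCL2L11 in 293T the 95% interval of the difference was -0.099 to 0.099. The BAX difference in MDA-MB-231 was lost with DESeq2 (0.116) and without shKDM5A-1 replicate 2 or 3 (0.154 and 0.0951) or shKDM5A-2 replicate 1 or 3 (0.0647 and 0.162). That of BCL2L1 in 293T was lost with DESeq2 (0.158) and without shKDM5A-1 replicate 1 or 3 (0.0694 and 0.109) or shKDM5A-2 replicate 3 (0.165).

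Regulators of the members moved in part. FOXO3, which acts on BCL2L11, rose after KDM5A shRNA in MDA-MB-231, to 58.0 ± 1.33 and 55.0 ± 1.54 CPM, against 45.3 ± 1.79 in shControl (SD, n = 3). Its log2 fold changes there were 0.36 ± 0.044 and 0.28 ± 0.044. In the other 3 experiments it was not called with both reagents, with 0.059 and 0.023 in 293T EglN2, 0.13 and 0.056 in MDA-MB-231 EglN2 and 0.057 and -0.11 in 293T KDM5A. With siEglN2-1 alone in MDA-MB-231 it was called higher (adjusted p from edgeR = 0.0135). With shKDM5A-2 in 293T FOXO3 had 100.6 to 105.9 CPM, below the 108.7 to 114.0 of shControl. E2F1, whose targets include BCL2L11, BBC3 and PMAIP1, was called higher with both reagents in all 4 experiments. In 293T it rose to 104 ± 0.942 and 108 ± 2.56 CPM with the EglN2 siRNAs, against 58.5 ± 5.49 in siControl. There BCL2L11 rose, PMAIP1 fell and BBC3 was not called. Other factors fell in that experiment, among them FOXO4 (log2 fold changes -0.75 and -0.76) and JUN (-0.65 and -0.66). HIF1A fell in MDA-MB-231 after EglN2 siRNA, to 306 ± 2.64 and 308 ± 4.36 CPM, against 505 ± 5.16 in siControl, while FOXO1 rose there (0.56 and 0.55) and fell after KDM5A shRNA (-0.45 and -0.48). DDIT3 (CHOP), a stress factor that acts on BCL2L11 and BBC3, rose in MDA-MB-231 after KDM5A shRNA (0.49 and 1.05) and fell in 293T (-0.37 and -0.49). The factors named here were picked from a longer list, and their part in the members' values was not tested.

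The rest of the family and the steps after the mitochondrion were taken from lists. BCL2A1, a guardian regulated by NF-kB, fell in MDA-MB-231 to 0.460 ± 0.0255 and 1.29 ± 0.571 CPM with the KDM5A shRNAs, against 2.70 ± 0.0847 in shControl (log2 fold changes -2.54 and -1.07, edgeR adjusted p = 1.19e-08 and 4.48e-04). BCL2L2 (BCL-w), the only other listed guardian tested in all 4 experiments, fell with both EglN2 siRNAs in MDA-MB-231 (-0.20 and -0.13), and with both KDM5A shRNAs in 293T (-0.83 and -0.16). Without siControl replicate 2 the siRNA values were -0.13 and -0.062, and the second call was lost (adjusted p from edgeR = 0.367), as it was with DESeq2 (0.0959) and without siEglN2-2 replicate 1 (0.114). The call of shKDM5A-2 was lost with DESeq2 (0.118) and without shKDM5A-2 replicate 2 (0.0730) or shControl replicate 2 (0.170). BNIP3 and BNIP3L, hypoxia-induced relatives that mark mitochondria for removal, fell with both KDM5A shRNAs in MDA-MB-231. BNIP3 stood at 167 ± 1.56 and 122 ± 1.17 CPM with the shRNAs, against 288 ± 0.786 in shControl, and BNIP3L at 83.6 ± 3.72 and 72.7 ± 0.659, against 128 ± 1.26. BAD, a killer that growth factor signalling restrains, fell after EglN2 siRNA in both lines, to 26.4 ± 1.76 and 27.7 ± 0.893 CPM against 41.8 ± 7.52 in siControl of 293T, with log2 fold changes of -0.12 and -0.19 in MDA-MB-231. BMF, a killer held at the cytoskeleton, rose in MDA-MB-231 to 13.7 ± 0.664 and 13.98 ± 0.448 CPM with the EglN2 siRNAs, against 9.08 ± 0.596 in siControl. Over the killers, effectors and relatives outside the 10 members, 0 rose and 4 of 10 fell with both reagents in 293T EglN2 (30.1% of all genes called either way), 1 rose and 2 of 9 fell in MDA-MB-231 EglN2 (38.7%), 0 rose and 1 of 10 fell in 293T KDM5A (13.4%), and 1 rose and 2 of 9 fell in MDA-MB-231 KDM5A (32.3%), which is near or below the shares of all genes in each experiment but 293T EglN2, where it is somewhat above.

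The counts of each list stand against the shares of all genes called in one direction with both reagents, 30.1% in 293T EglN2, 38.7% in MDA-MB-231 EglN2, 13.4% in 293T KDM5A and 32.3% in MDA-MB-231 KDM5A, and the split between rises and falls was not tested. Of the mitochondrial release step, in 293T 6 of 10 fell and 0 rose with both siRNAs, with a median of -0.19 beside 0.009 over all genes, and in MDA-MB-231 4 fell and 2 rose, with -0.083 beside 0.001. VDAC2, an outer membrane channel that binds BAK1, fell to 204 ± 3.17 and 201 ± 3.67 CPM, against 261 ± 24.5 in siControl of 293T, with log2 fold changes of -0.24 and -0.26 in MDA-MB-231. CYCS, cytochrome c, rose after KDM5A shRNA in both lines, with 0.25 and 0.096 in 293T, where the second call was lost without shControl replicate 3 (0.0607), and 0.30 and 0.17 in MDA-MB-231. In 293T KDM5A 3 of 10 rose and 0 fell, and in MDA-MB-231 KDM5A 1 rose and 2 fell.

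Of the death receptor genes in MDA-MB-231, 5 of 9 fell and 0 rose with both EglN2 siRNAs (38.7% of all genes called either way), and 5 of 9 fell and 1 rose with both KDM5A shRNAs (32.3%), with medians of -0.15 and -0.37 beside 0.001 and -0.007 over all genes. TNFSF10 (TRAIL), a death ligand, fell to 6.32 ± 0.600 and 7.33 ± 0.777 CPM with the EglN2 siRNAs, against 9.64 ± 0.408 in siControl. It fell with both KDM5A shRNAs, to 8.43 ± 1.12 and 3.04 ± 0.172 CPM, against 14.3 ± 0.507 in shControl. Its receptor TNFRSF10B fell with the siRNAs, to 251 ± 4.496 and 255 ± 2.60 CPM, against 317 ± 1.74 in siControl. CFLAR, which blocks caspase-8 at the receptor, fell with the shRNAs, to 26.9 ± 0.509 and 34.5 ± 2.01 CPM, against 51.5 ± 2.76 in shControl. In 293T 2 of 7 fell after EglN2 siRNA and 0 were called either way with both reagents after KDM5A shRNA.

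Of the inhibitors of apoptosis, BIRC5 (survivin) fell and XIAP, which blocks caspases, rose with both EglN2 siRNAs in both lines. BIRC5 stood at 185 ± 1.64 and 186 ± 2.09 CPM, against 276 ± 26.4 in siControl of 293T, and at 98.0 ± 3.13 and 99.7 ± 2.35, against 142 ± 2.11 in MDA-MB-231. XIAP had log2 fold changes of 0.39 and 0.45 in 293T and 0.25 and 0.26 in MDA-MB-231. BIRC3, an NF-kB target, stood at 114 ± 5.09 and 161 ± 1.26 CPM with the KDM5A shRNAs, against 217 ± 5.92 in shControl of MDA-MB-231. It rose with the EglN2 siRNAs in that line (0.36 and 0.44). With both reagents 1 of 4 rose and 1 fell in 293T EglN2, 2 of 5 rose and 2 fell in MDA-MB-231 EglN2, 0 of 4 were called in 293T KDM5A and 1 of 5 fell in MDA-MB-231 KDM5A. Among genes that control the turnover of MCL1 and BCL2L11 proteins, BTRC, a ubiquitin ligase subunit, rose after EglN2 siRNA to 76.0 ± 1.961 and 73.7 ± 1.13 CPM, against 50.7 ± 4.06 in siControl of 293T, and to 43.5 ± 1.25 and 45.9 ± 1.99, against 25.6 ± 1.11 in MDA-MB-231. HUWE1, a ligase of MCL1, fell after EglN2 siRNA in MDA-MB-231 (-0.23 and -0.18) and after KDM5A shRNA in 293T (-0.13 and -0.22). Of this list 1 of 6 rose and 0 fell in 293T EglN2, 2 of 5 rose and 3 fell in MDA-MB-231 EglN2, and 1 rose and 1 fell in each KDM5A experiment.

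**Figure D5:**
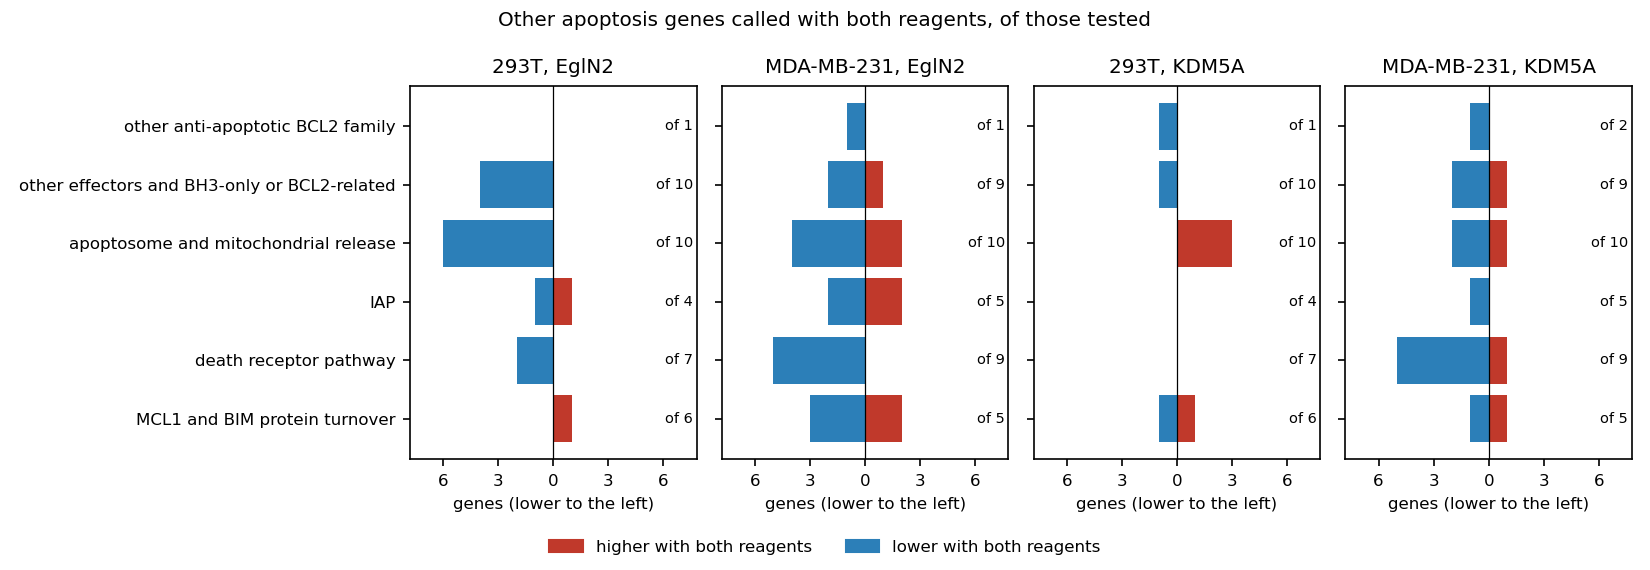
Number of genes (horizontal axis) of each of 6 apoptosis lists called higher (red, right) or lower (blue, left) with both reagents in each experiment, with the number tested at the right edge. In 293T EglN2 6 of 10 genes of mitochondrial release were lower, and in MDA-MB-231 5 of 9 death receptor genes were lower in each experiment.

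The sequence GACAGAA, searched on the sense strand because earlier results of these data had pointed to it, was in 0 of the 10 members' 3' UTRs (GENCODE 29), and in 13.684% of 19132 genes. Carriers had a median log2 fold change of -0.052 and -0.053 with the siRNAs in 293T and -0.081 and -0.074 in MDA-MB-231, against 0.005, 0.005, 0.015 and 0.014 for genes without it. With the KDM5A shRNAs carriers had -0.013 and -0.02 in 293T and 0.004 and 0.029 in MDA-MB-231. Genes without it had 0.009, 0.006, 0.009 and -0.008 there. The sequence was picked from these same data, so the lower medians of carriers are no separate test of it.

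Genes whose pattern was most like that of a member were found by Pearson's r over the 12 group means of log2(CPM + 0.5), centred in each table, among 13702 genes. Centring ties the groups of a table to each other, and the genes named are those with the highest r among 13702, so these are descriptions. SEH1L, TECPR2 and TBC1D14 were most like BCL2L11 (r = 0.980, 0.967 and 0.967), and RABGEF1, TSC22D3 and SPHK1 most like BCL2 (0.966, 0.959 and 0.934). For MCL1 they were TSPYL2, TMEM110 and GIGYF1 (0.971, 0.965 and 0.963), for BAX AGPAT2, HES6 and VDAC1 (0.963, 0.957 and 0.954), and for BAK1 ZNF512B, GATA6 and KDR (0.976, 0.967 and 0.960). For BBC3 they were ATAT1, CTDSP1 and JUNB (0.982, 0.971 and 0.968), for PMAIP1 TMEM216, CLINT1 and CRNKL1 (0.981, 0.968 and 0.967), and for BID ARL6IP5, PFKFB4 and ETV6 (0.967, 0.963 and 0.960).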

How the data were processed

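RNA sequencing of 293T and MDA-MB-231 was read from 4 tables, 1 per line and target. The authors deposited raw and normalized columns. The raw columns deposited by the authors hold expected counts: only 49.3% to 50.4% of values were whole (within 0.01), and all were rounded. The 36 normalized columns were not used. The submitters' processing notes list Salmon 0.1.19, STAR 2.4.2 and 2 builds, hg19 and GRCh38, without a role, so the counting step is not given in the sources used here. Rows that a spreadsheet had turned into dates (20 to 22 per table, 0.182% to 0.213% of counts) were left out. In every table the row maxima started at 10 counts, so lower genes had been removed.

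Each table was fitted with edgeR 4.0.16 in R 4.3.3 (TMM, filterByExpr at 10 counts, quasi-likelihood F-test in robust form, 9 libraries), which tested 17622, 15109, 17376 and 15454 genes in 293T EglN2, MDA-MB-231 EglN2, 293T KDM5A and MDA-MB-231 KDM5A. SE is the log2 fold change over the root of F, and 95% intervals are 1.96 SE to either side. This normal multiple makes them narrower than the F-test implies. Lines were compared in 1 fit of 18 libraries per target. Ratios of CPM were tested with an exact permutation test. The fits were tested on simulated data.

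One 293T siControl column carries no replicate number and was used as the remaining library of that group. Alternatives were DESeq2 1.42.0, median-of-ratios scaling, other filters, thresholds and library sets, a replicate block, and each library left out. The members, the 9 further lists (77 genes) and the motifs were chosen with earlier results of these data known. Named genes are all members, the targets, up to 3 genes per list and table called with both reagents (the largest changes by the weaker reagent), and 3 genes most like each member called in at least 2 tables; not all of these are printed. Some genes, and 3 lists that rest on them, are not reported here. Library totals of 14361216 to 27592156 counts limit the precision of low genes.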

Additional observations from a re-analysis of the deposited data

Results flagged for a closer look

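The effect of a knockdown on 9 values of members differed between the lines in a test of the difference itself (edgeR interaction, MDA-MB-231 minus 293T, mean log2 fold change of both reagents, adjusted over all genes). After EglN2 siRNA these were 2 of 9 members, against 31.2% of all genes called: BAK1, at 0.381, and BID, at 0.354. After KDM5A shRNA they were 7 of 10, against 44.7% of all genes. These were BCL2L11, at 0.308, BCL2, at 0.753, BAK1, at 0.215, MCL1, at -0.179, BAX, at -0.26, BBC3, at -0.758, and BID, at -0.651. BCL2 and BBC3 after KDM5A shRNA had mean effects of opposite sign in the lines, and the difference between lines stayed called for each in each of the fits without 1 library. The 293T side of both was weaker. With DESeq2 the BBC3 rise in 293T was not called with either shRNA (adjusted p = 0.0727 and 0.0903). The BCL2 fall in 293T was not called with shKDM5A-2 by DESeq2 (adjusted p = 0.101). For BAX the mean of 0.36 in 293T rests on shKDM5A-2 (0.65), since shKDM5A-1 had 0.061. The BID value after KDM5A shRNA likewise averages -0.34 and 0.049 in 293T, where the shRNAs differ.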

How the results depend on the processing

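Of 2134 values of members under alternatives other than the stricter thresholds, 2080 stayed on their side of the threshold, 37 lost and 17 gained a call, and 0 called values changed sign. A further 61 values of members and other named genes, called in neither fit, changed sign near 0 (at most 0.073 in size). With a 1.5-fold minimum, members called were 0 in each EglN2 comparison, 0 and 1 with shKDM5A-1 and shKDM5A-2 in 293T, 2 and 2 in MDA-MB-231, and 1 and 0 between the shRNAs in 293T and MDA-MB-231. Genes called were then 1383 and 1344 with the EglN2 siRNAs in 293T, 951 and 972 in MDA-MB-231, 1083 and 854 with the KDM5A shRNAs in 293T and 1866 and 2476 in MDA-MB-231. At an adjusted p under 0.01, 3741 and 3506 genes were called in 293T EglN2 and 3 members with shKDM5A-2 in 293T, where DESeq2 also called 3. Median-of-ratios scaling moved the median of all genes by at most 0.0112.

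With 1 library left out, members called ranged from 5 to 7 and 5 to 6 with siEglN2-1 and siEglN2-2 in 293T, 5 to 7 and 6 to 6 in MDA-MB-231, 5 to 7 and 3 to 7 with shKDM5A-1 and shKDM5A-2 in 293T, and 7 to 8 and 8 to 8 in MDA-MB-231. Between shRNAs they ranged from 4 to 5 and 5 to 6, and for the difference between lines from 2 to 4 for EglN2 and 7 to 7 for KDM5A. The lowest value with shKDM5A-2 in 293T, 3, came without shControl replicate 2. Genes called ranged from 4530 to 7741 and 4349 to 7640 in 293T EglN2, 6135 to 6738 and 6207 to 6850 in MDA-MB-231 EglN2, 6390 to 7403 and 5860 to 6762 in 293T KDM5A and 7760 to 8520 and 8342 to 9393 in MDA-MB-231 KDM5A. Libraries with the same replicate number did not deviate together (r from -0.0872 to 0.0772 over 34 pairs, 0 over 0.1), so the numbers were not read as pairs. With a replicate block, 132 values of members kept their call and 1, the BCL2 difference between lines for EglN2, was gained (0.32, edgeR adjusted p = 0.0412).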
